A study of Homo sapiens with 12 samples.

Results

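The 195 genes described here are the expressed zinc-finger genes of human chromosome 19 in MV4-11 cells. They are protein-coding genes of that chromosome whose symbol starts with ZNF and a digit, and they were chosen by their measured level: 1 or more in CPM, the counts of a gene scaled to its column total, in at least 3 of the 12 libraries. Of 249 such genes annotated on the chromosome, 54 fell below that level, and 14 of these had no count in any library. The whole table holds 58051 genes. MV4-11 is a human acute myeloid leukaemia line, and polyadenylated RNA was sequenced after 6 h in 4 groups of 3 libraries. The groups were DMSO at 0.1%, the CDK4 and CDK6 inhibitor palbociclib at 200 nM, and BSJ-03-123 and YKL-06-102, each at 200 nM, which the series describes as phthalimide conjugates specific for CDK6. All groups came from this single line, and no label tells whether the replicates are separate cultures, and the p-values therefore reflect only the spread between these libraries. The counts are of bulk RNA, in which fewer cells of a type and less RNA per cell cannot be told apart.

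Zinc-finger proteins of this family carry tandem C2H2 fingers, each folded around a zinc ion, which read DNA sequence. Most of those encoded on chromosome 19 also carry a KRAB box, which binds the co-repressor TRIM28. TRIM28 brings the histone methyltransferase SETDB1 and HP1 proteins, and the resulting H3K9 methylation silences transposable elements and other targets. The genes lie in tandem clusters that arose by duplication, and ZNF274, itself a member, is known to bring TRIM28 and SETDB1 to the ends of many of its neighbours.

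The start regions of 5 members are shown because these genes stand for the responses described below: ZNF461, ZNF585A and ZNF585B were higher with palbociclib, ZNF724 was lower with every compound, and ZNF627 differed most clearly between YKL-06-102 and the rest. Each stretch runs from 100 bases before to 30 bases from a start given by RefSeq (GRCh38.p14). RefSeq gives ZNF585A a second start, at chr19:37172407-37172536 for the same stretch, which holds 0 matches of CCGGAAGT and is not shown. Capitals mark CCGGAAGT, the core letters bound by ETS-type factors and GABP, on either strand in the first 3, and CCAAT, the letters read by NF-Y, in the last 2. Neither motif was confined to 1 direction in the wider windows counted below. With palbociclib, 16 members with CCGGAAGT were higher and 3 lower, and 26 with CCAAT were higher and 12 lower. The stretches lie at chr19:36666808-36666937 (minus strand), chr19:37172666-37172795 (minus), chr19:37210507-37210636 (minus), chr19:23250365-23250494 (minus) and chr19:11597383-11597512 (plus).
ZNF461: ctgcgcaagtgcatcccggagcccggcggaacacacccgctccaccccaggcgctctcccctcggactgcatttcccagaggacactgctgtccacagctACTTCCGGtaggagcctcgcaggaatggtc
ZNF585A: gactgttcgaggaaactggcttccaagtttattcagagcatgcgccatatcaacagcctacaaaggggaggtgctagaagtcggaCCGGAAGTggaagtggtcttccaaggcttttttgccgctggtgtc
ZNF585B: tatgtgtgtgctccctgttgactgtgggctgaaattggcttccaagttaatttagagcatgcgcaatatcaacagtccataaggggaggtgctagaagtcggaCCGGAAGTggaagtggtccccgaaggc
ZNF724: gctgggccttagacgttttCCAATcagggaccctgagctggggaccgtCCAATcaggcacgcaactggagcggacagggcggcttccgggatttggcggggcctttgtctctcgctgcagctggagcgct
ZNF627: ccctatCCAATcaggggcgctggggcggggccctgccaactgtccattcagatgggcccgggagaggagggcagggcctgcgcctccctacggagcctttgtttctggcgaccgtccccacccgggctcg

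RefSeq promoters, 250 bases before to 50 after a start, were matched for 176 of the 195 members. CCGGAAGT stood on either strand in 43 of them, or 24.4%, against 16.6% of the matched ZNF genes of other chromosomes, 8.55% of other chromosome 19 genes and 4.95% of all 27305 genes of the promoter table. Unlike the other sets, the genes of the whole promoter table were not chosen by level or as protein-coding. CCAAT was present in 52.3% of members, 48% of ZNF genes elsewhere, 44.8% of other chromosome 19 genes and 39.7% of all genes. GGGCGG was present in 67.6%, 68%, 80.2% and 48.3% in the same order, so that members held it less often than their chromosome 19 neighbours and about as often as other ZNF genes. The E2F-type letters TTTGGCGC stood in 6 members, 3.41% against 0.795% of all genes, and TTTCCCGC in 3, 1.70% against 1.98%. TTCCCGCC, which overlaps TTTCCCGC, stood in 9 members, 5.11% against 3.79%. Among ZNF genes elsewhere and other chromosome 19 genes, TTTGGCGC stood in 0.571% and 0.684%, TTTCCCGC in 5.14% and 4.44%, and TTCCCGCC in 5.71% and 5.98%. Members thus held TTTGGCGC more often than both of these sets, and TTTCCCGC and TTCCCGCC less often. A match describes the letters of the window and is not a measured binding site.

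Translated GENCODE coding sequences held a median of 12 finger matches per member, from 0 in ZNF738 to 31 in ZNF91. A KRAB box match was found in 164 members, against 91 of the 210 expressed ZNF genes of other chromosomes, whose median was 9 fingers. The members held 0.397% of all counts. Their DMSO level had a median of 13.7 CPM and ran from 0.781 to 278 CPM (CPM here and below are scaled by TMM factors). Per kilobase of transcript the DMSO median was 3.19 CPM, and the highest was ZNF146 at 73.4 CPM per kilobase, a protein made almost wholly of fingers with no KRAB match. ZNF787, ZNF428 and ZNF317 followed at 38.9, 35.9 and 30.5 CPM per kilobase. The rule reads levels, so these levels are a description. Just inside it were ZNF610, at 1 CPM in 4 libraries, ZNF541 in 6 and ZNF888 in 9, and just outside ZNF320 and ZNF626, each in 2, and ZNF14 in 1. All members were tested, 189 reached 1 CPM in all 12 libraries, and none passed the rule through a single group alone.

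Library totals ranged from 18764307 to 25539858 counts, and the median member had 309 counts per library. All 8 myeloid and KMT2A-leukaemia marker genes were expressed, at means of 8.15 to 413 CPM. Of 15 markers of lymphoid, erythroid, megakaryocytic, epithelial and stromal cells, 4 were expressed above the filter and 8, among them MS4A1, HBB and EPCAM, had no count in any library. The summed level of the 15 was 27.6 to 34.6 CPM over the libraries. DMSO replicate 2, the deepest library, stood apart: its counts differed from those of DMSO replicates 1 and 3 by a chi-square of 5.72 and 8.65 per degree of freedom, against 1.71 to 2.91 for all other replicate pairs. In that library the members had a median deviation of -0.13 (log2) from their mean over all libraries, and in the other DMSO libraries -0.01 and 0.00. ZNF genes of other chromosomes deviated in the same direction there, by -0.09, while the median of all tested genes was -0.00. Counts of groups of genes against DMSO are therefore given with and without this library.

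**Figure D1:**
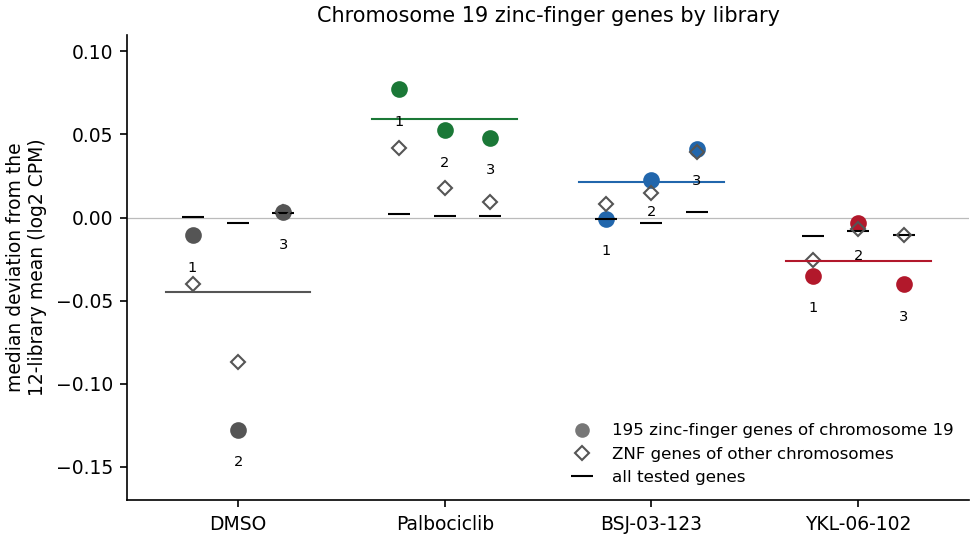
Median log2 deviation of the 195 members from their own 12-library mean (points, numbered by replicate; coloured line, group mean) of the ZNF genes of other chromosomes (open diamonds) and of all 14214 tested genes (black dashes) in each library. In DMSO replicate 2 the members lie at -0.13 and the ZNF genes elsewhere at -0.09, the members lie between 0.05 and 0.08 in the palbociclib libraries, and the medians of all genes lie near 0.

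Against DMSO, more members rose than fell with each compound, by small amounts, and the excess was smaller when DMSO replicate 2 was left out. With palbociclib 61 members were higher and 18 lower in edgeR's quasi-likelihood test, called at 0.05 after Benjamini-Hochberg adjustment across the 14214 genes tested. These are 31.3% and 9.23% of the members, while 15.6% of all tested genes were higher and 17.6% lower. The median log2 fold change was 0.12 over the members, 0.07 over 210 ZNF genes of other chromosomes, -0.00 over 715 other chromosome 19 genes and 0.01 over all tested genes. Among the ZNF genes elsewhere 40 were higher and 20 lower, and among the other chromosome 19 genes 134 and 151. Without DMSO replicate 2, 35 members were higher and 18 lower, 17.9% and 9.23% against 14.7% and 17.3% of all genes, with a median of 0.08, and 34 of the 61 remained. In the same setting 29 ZNF genes elsewhere were higher and 23 lower, 13.8% and 11%. Among other chromosome 19 genes there were 195 and 121, 27.3% and 16.9%, so their higher share was above that of the members. Of the calls, 30 higher and 10 lower stood whichever single library was left out. Scaling by library totals instead gave 83 higher and 11 lower, and it moved the median of all tested genes from 0.01 to 0.06.

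With BSJ-03-123, 33 members were higher and 12 lower, 16.9% and 6.15%, against 12.4% and 15.7% of all tested genes. The median over the members was 0.09. ZNF genes elsewhere had 19% higher and 8.1% lower and other chromosome 19 genes 16.9% and 18.7%, so the share of members that rose was not above that of either set. Without DMSO replicate 2 there were 20 higher and 18 lower, 10.3% and 9.23% against 12.3% and 16.1% of all genes, and the median was 0.045, so the split was near even, and 12 higher and 9 lower calls stood whichever library was left out. Without DMSO replicate 2, 13.8% of ZNF genes elsewhere were higher and 10% lower, and 23.8% and 15.8% of other chromosome 19 genes. Scaling by library totals gave 60 members higher and 12 lower, and it moved the median of all tested genes from 0.0075 to 0.051. With YKL-06-102, 31 members were higher and 14 lower, 15.9% and 7.18%, against 15.6% and 21.3% of all tested genes (36.9% in either direction). Its median was 0.01, and without DMSO replicate 2 it was -0.01 with 29 higher and 23 lower, 14.9% and 11.8% against 19.2% and 19.7% of all genes. ZNF genes elsewhere had 15.7% higher and 12.9% lower with all libraries, and other chromosome 19 genes 22.1% and 19.4%. Without DMSO replicate 2 these shares were 18.6% and 14.3%, and 35.4% and 14.1%. With all libraries the share of members higher with YKL-06-102 was thus near that of all genes, while fewer members than genes in general were lower. The 3 comparisons share their DMSO libraries.

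**Figure D2:**
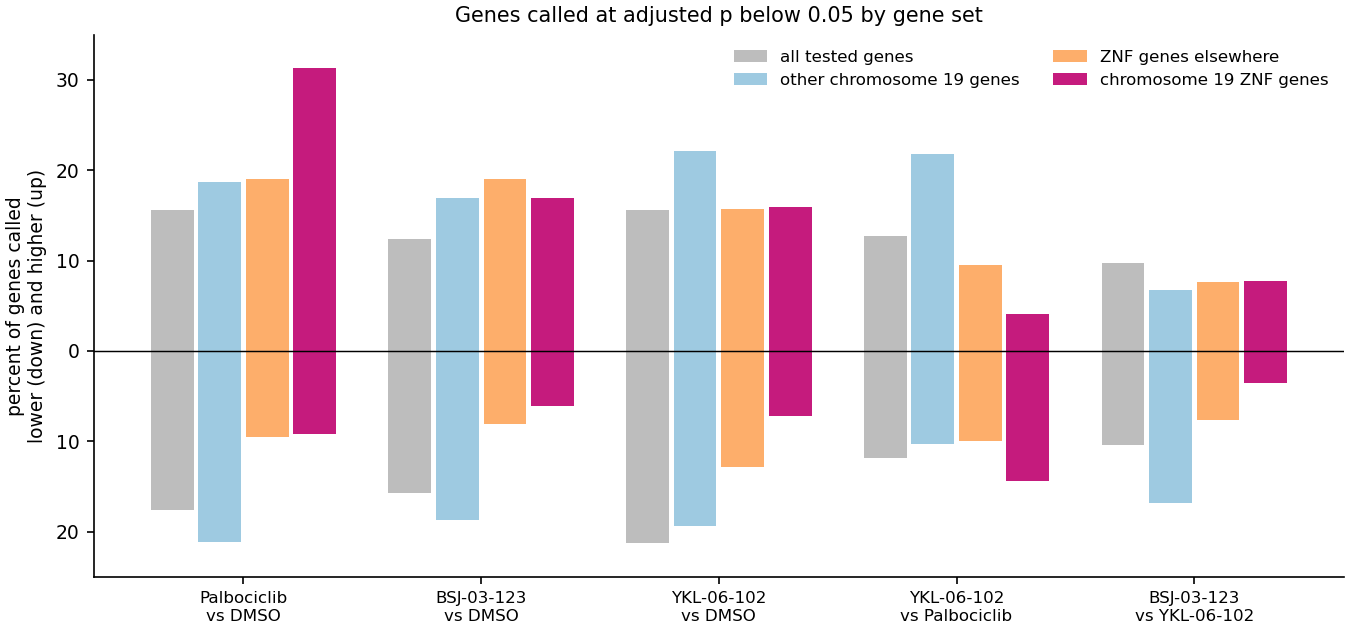
Percent of genes called higher (up) and lower (down) at an adjusted p under 0.05 in 5 comparisons, for all tested genes, other chromosome 19 genes, ZNF genes elsewhere and the 195 members. The members reach 31.3% higher with palbociclib, and with YKL-06-102 against palbociclib 4.1% are higher and 14.4% lower.

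Called changes of 0.32 or more on the log2 scale were seen in 18 members higher and 9 lower with palbociclib, where 4.69% of all tested genes were higher by that much and 7.77% lower. BSJ-03-123 gave 14 and 6 such members, against 3.25% and 6.91% of all genes, and YKL-06-102 11 and 6, against 7.32% and 8.18%. These counts were 13 and 10, 8 and 10, and 12 and 10 without DMSO replicate 2. Of the 14374 genes tested in that setting, 586 and 1145, 416 and 1035, and 1142 and 1155 changed by that much. Changes of 2-fold or more were called in ZNF724 with palbociclib and in ZNF627 and ZNF792 with YKL-06-102. The members that fell are described first, then those that rose, then those that differed between compounds.

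ZNF724 (ENSG00000196081; chromosome 19, 23221599 to 23250390, minus strand, GRCh38) fell most. It encodes a KRAB protein with 14 fingers in the pericentromeric cluster of ZNF91 relatives. Its level was 4.14, 4.03 and 4.29 CPM in DMSO, 1.87, 1.86 and 2.12 with palbociclib, 2.36, 2.15 and 2.08 with BSJ-03-123 and 2.54, 2.01 and 2.02 with YKL-06-102. Every treated library lay below every DMSO library. The log2 fold change was -1.09 with palbociclib (SE 0.151, adjusted p = 9.82e-07), -0.92 with BSJ-03-123 (SE 0.15, adjusted p = 1.65e-05) and -0.92 with YKL-06-102 (SE 0.144, adjusted p = 5.92e-06). Of its 50-base words 48.7% also occur in transcripts of other genes, mostly AC092329.3, so its own count is uncertain.

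ZNF850, a KRAB protein with 29 fingers (36714383 to 36772825, minus strand), stood at 23.8, 21.6 and 23.2 CPM in DMSO and at 16.3, 14.3 and 16.3 with palbociclib. With BSJ-03-123 it had 17.5, 17.3 and 19.1 CPM, and with YKL-06-102 18.1, 17.2 and 15.7. The DMSO libraries were again above all 9 others. It fell by 0.54 on the log2 scale with palbociclib (SE 0.0703, adjusted p = 5.01e-07), by 0.34 with BSJ-03-123 (adjusted p = 0.00037) and by 0.42 with YKL-06-102 (adjusted p = 1.36e-05). Its range overlaps ZNF567, and since the strand setting of the counting is not given in the sources used here, reads of overlapping genes cannot be told apart.

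ZNF93, whose protein is known to bind and repress LINE-1 elements, had 30.4, 28.6 and 27.9 CPM in DMSO. It had 22.5, 22.5 and 22.8 CPM with palbociclib, 22.1, 22.8 and 21.2 with BSJ-03-123 and 23.1, 23.4 and 24.1 with YKL-06-102. No treated library reached the DMSO range. It fell by 0.36, 0.40 and 0.30 on the log2 scale (adjusted p = 6.02e-06, 2.02e-06 and 4.7e-05). ZNF473 encodes ZFP100, a protein of the U7 snRNP pathway that processes histone pre-mRNA. It had 78.8, 80.3 and 79.3 CPM in DMSO and 64.2, 65.8 and 65.2 with palbociclib, then 69.1, 66.3 and 63.3 with BSJ-03-123 and 67.0, 73.1 and 71.0 with YKL-06-102. It fell by 0.29, 0.26 and 0.18 (adjusted p = 2.21e-06, 1.27e-05 and 0.000868), and its range overlaps VRK3. ZNF180 fell by 0.20, 0.31 and 0.21 in the same order (adjusted p = 0.00636, 0.000132 and 0.00329), from 24.8 ± 0.38 CPM (SD, n = 3) in DMSO to 21.6 ± 0.89, 20.1 ± 0.754 and 21.5 ± 0.503. All of the calls of ZNF724, ZNF850, ZNF93, ZNF473 and ZNF180 against DMSO stood whichever single library was left out.

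ZNF726 and ZNF530 also fell with each compound, but less firmly. ZNF726 went from 6.43 ± 0.717 CPM in DMSO to 4.08 ± 0.337 with palbociclib and 4.14 ± 0.652 with BSJ-03-123, log2 changes of -0.65 and -0.62. Its change with YKL-06-102 was -0.30 (adjusted p = 0.0456), a call lost in most other settings, with adjusted p = 0.18 without DMSO replicate 3. ZNF530 changed by -0.54, -0.36 and -0.33, and its calls with BSJ-03-123 and YKL-06-102 were lost without DMSO replicate 1 (adjusted p = 0.0529 and 0.0597), the latter also without YKL-06-102 replicate 2 (adjusted p = 0.07). ZNF527 changed by -0.36 with YKL-06-102 (adjusted p = 0.00873), from 8.64, 6.86 and 9.28 CPM to 6.63, 5.85 and 6.51. That call was lost without DMSO replicate 3 or YKL-06-102 replicate 2 (adjusted p = 0.0675 and 0.0648). Without DMSO replicate 2, ZNF527 was also called lower with palbociclib and BSJ-03-123, at -0.37 and -0.33.

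**Figure D3:**
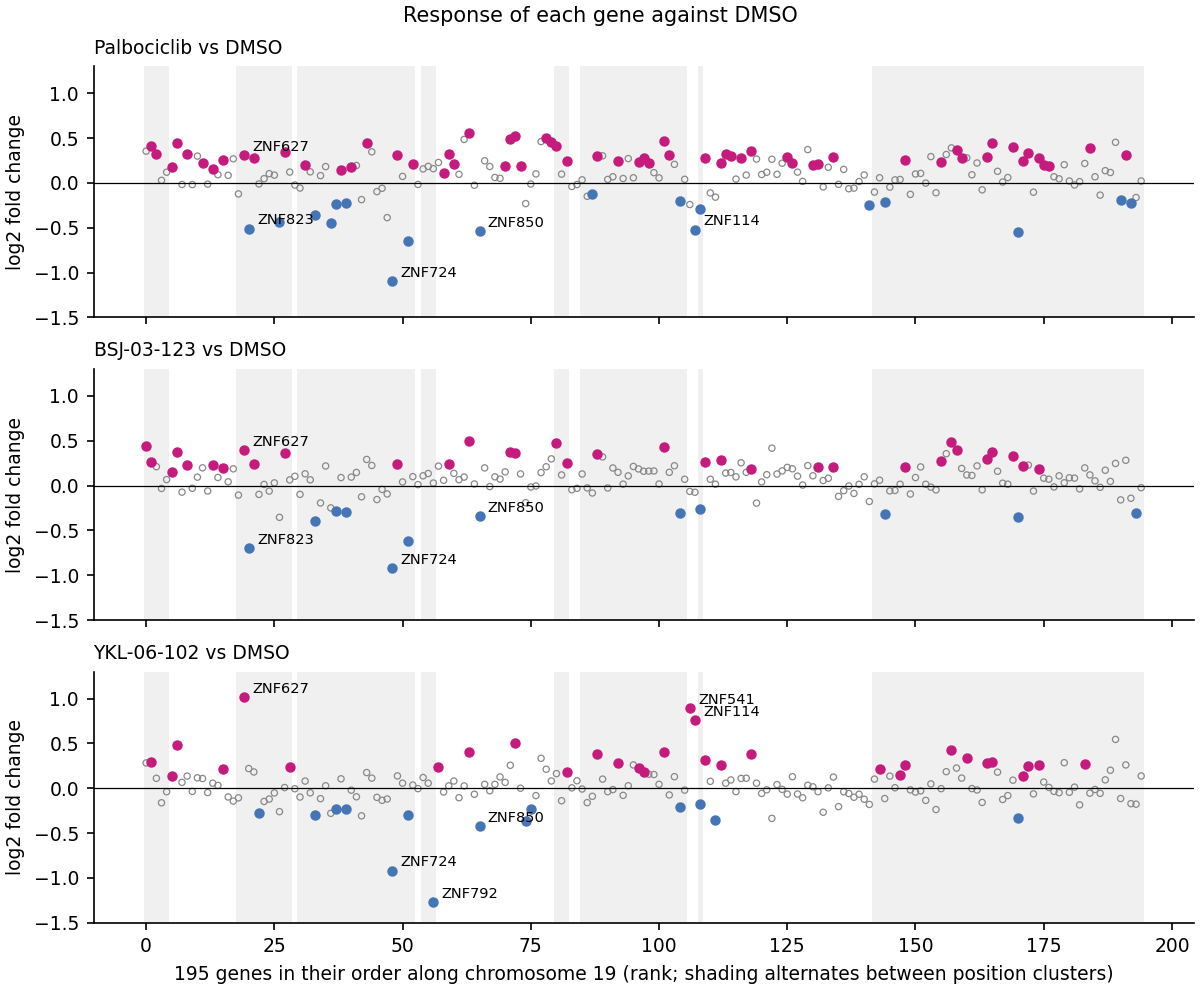
Log2 fold change against DMSO of the 195 members in their order along chromosome 19, for palbociclib, BSJ-03-123 and YKL-06-102. Filled points were called higher or lower, open circles were not, and shading alternates between position clusters; ZNF724 lies lowest with palbociclib, at -1.09, and ZNF627 highest with YKL-06-102, at 1.02.

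Of the members that rose, ZNF461 had the highest fold change with palbociclib and with BSJ-03-123. This KRAB gene with 10 fingers (36637192 to 36666853, minus strand) had 4.55, 4.48 and 4.83 CPM in DMSO and 7.43, 6.05 and 6.80 with palbociclib. It had 6.72, 6.56 and 6.27 CPM with BSJ-03-123 and 5.24, 6.61 and 6.47 with YKL-06-102, all above DMSO. The log2 fold change was 0.56 (SE 0.116, adjusted p = 0.000362), 0.50 (SE 0.118, adjusted p = 0.00175) and 0.40 (SE 0.117, adjusted p = 0.00656), and each call stood without any single library. Its start region, shown above, holds ACTTCCGG at the annotated start.

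ZNF585A and ZNF585B are neighbouring KRAB genes with 21 fingers each, whose start regions are shown above. ZNF585B had 9.11, 7.06 and 9.71 CPM in DMSO, 11.8, 12.3 and 12.6 with palbociclib, 10.4, 11.4 and 11.0 with BSJ-03-123 and 10.8, 12.1 and 13.3 with YKL-06-102. DMSO replicate 2 was its lowest library, and no treated library entered the DMSO range. It rose by 0.52 (adjusted p = 0.000131), 0.36 (adjusted p = 0.00794) and 0.50 (adjusted p = 0.000151) on the log2 scale. ZNF585A changed by 0.49 and 0.37 with palbociclib and BSJ-03-123 (adjusted p = 0.000449 and 0.009), and by 0.26 with YKL-06-102 (adjusted p = 0.0581, 95% interval 0.04 to 0.47), a change that was called without DMSO replicate 3 (adjusted p = 0.0322). Without DMSO replicate 2 the BSJ-03-123 calls of both were lost, at 0.25 for ZNF585A (adjusted p = 0.0952) and 0.22 for ZNF585B (adjusted p = 0.107). Of their 50-base words 17.6% in ZNF585A and 27.6% in ZNF585B are shared with other genes, above all with each other, and their ranges overlap ZNF420 and ZNF383.

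ZNF358, which has 9 fingers and no KRAB match, rose from 4.76 ± 0.272 CPM to 6.51 ± 0.462, 6.19 ± 0.603 and 6.68 ± 0.189 with palbociclib, BSJ-03-123 and YKL-06-102. Its log2 changes were 0.44, 0.37 and 0.48, and the BSJ-03-123 call was lost without DMSO replicate 1 or BSJ-03-123 replicate 1 (adjusted p = 0.0578 and 0.0816). ZNF555 rose by 0.41, 0.26 and 0.29, with the BSJ-03-123 call lost without DMSO replicate 2 (adjusted p = 0.111) or BSJ-03-123 replicate 2 (adjusted p = 0.0516). ZNF561 rose by 0.26, 0.19 and 0.22, from 37.5 ± 1.47 CPM to 44.6 ± 1.5, 42.8 ± 1.65 and 43.4 ± 0.908, and kept each call without any single library. ZNF546, a KRAB gene with 22 fingers, rose by 0.41 with palbociclib and 0.48 with BSJ-03-123, from 5.95 ± 0.352 CPM to 7.94 ± 1.23 and 8.33 ± 0.682, and its change with YKL-06-102 was 0.16 (adjusted p = 0.287). ZNF616 rose by 0.36 with palbociclib and 0.38 with YKL-06-102, calls that stood without any library, and by 0.18 with BSJ-03-123, a call that did not (adjusted p = 0.232 without DMSO replicate 2).

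Other rises depended on single libraries. ZNF235 changed by 0.47, 0.43 and 0.40, and its palbociclib call was lost without palbociclib replicate 1, whose 8.94 CPM stood above 6.76 and 6.65 (adjusted p = 0.0809). Its other calls were lost without DMSO replicate 2 (adjusted p = 0.091 and 0.0705 in the order above), and the last of them also without YKL-06-102 replicate 1 (adjusted p = 0.0754). ZNF607 changed by 0.50 with palbociclib (adjusted p = 0.0333), at 1.79 ± 0.356 CPM in DMSO, and lost the call without DMSO replicate 1 or 2 or palbociclib replicate 2 (adjusted p = 0.151, 0.0851 and 0.168). ZNF554 changed by 0.45 with BSJ-03-123, of 4.06, 4.83 and 6.32 CPM, and lost the call without BSJ-03-123 replicate 3 (adjusted p = 0.261) or DMSO replicate 1 (adjusted p = 0.104). ZNF460 changed by 0.49 with BSJ-03-123 and, with YKL-06-102, by 0.43, and without DMSO replicate 1 the adjusted p was 0.133 and 0.173.

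Of the 5 members with the highest mean CPM in DMSO, ZNF473 fell with each compound, as given above, and the others moved little. ZNF146 stood at 282, 264 and 286 CPM in DMSO and 305, 299 and 292 with palbociclib, a log2 change of 0.11 (SE 0.0339, adjusted p = 0.0163) that was not called without DMSO replicate 2 (0.07, adjusted p = 0.0914), palbociclib replicate 1 (adjusted p = 0.0943) or palbociclib replicate 2 (adjusted p = 0.0572). ZNF317 stood at 128 ± 1.03 CPM in DMSO, 126 ± 5.2 with palbociclib, 125 ± 4.98 with BSJ-03-123 and 125 ± 1.37 with YKL-06-102. Its 95% interval for palbociclib was -0.09 to 0.05. ZNF274, the member that recruits SETDB1 to zinc-finger genes, had 87.9 ± 1.78 CPM in DMSO and 92.2 ± 3.14, 91.1 ± 3.25 and 87.1 ± 3.88 with the compounds in the same order. Its log2 changes of 0.07, 0.05 and -0.01 were not called, although scaling by library totals gave a called rise of 0.12 with palbociclib (adjusted p = 0.0245). ZNF266 changed by -0.01, -0.06 and -0.05, also not called, and by -0.12 with BSJ-03-123 without DMSO replicate 2 (adjusted p = 0.0398). Across the 195 genes the palbociclib fold change had a Spearman correlation of -0.29 with the DMSO level, 0.15 with the number of fingers and -0.09 with transcript GC content, values that describe genes sharing the same libraries.

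YKL-06-102 differed from palbociclib in 36 members, and the difference went mostly one way. Against palbociclib, 8 members were higher and 28 lower with YKL-06-102, 4.1% and 14.4%, where 12.7% of all tested genes were higher and 11.9% lower. The median over the members was -0.08, against -0.05 over ZNF genes elsewhere, 0.03 over other chromosome 19 genes and -0.01 over all tested genes. The lower count rests on single libraries: it was 13 without palbociclib replicate 1, 14 without YKL-06-102 replicate 1 or 3 and 17 without palbociclib replicate 2, and 4 of the higher and 10 of the lower calls stood whichever library was left out. The higher count was 4 without palbociclib replicate 1 or YKL-06-102 replicate 3 and 13 without DMSO replicate 2, a library of neither group, whose omission also moved the median of all genes from -0.01 to 0.01. Correcting for GC content gave 8 higher and 15 lower, and the Spearman correlation of the fold change with GC content was 0.32 over the 195 genes.

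ZNF627, a KRAB gene with 11 fingers (11559374 to 11619135, plus strand), showed the clearest difference. It had 30.8, 30.1 and 31.4 CPM in DMSO, 39.7, 37.3 and 37.4 with palbociclib, 39.2, 42.7 and 39.2 with BSJ-03-123 and 62.4, 62.9 and 61.6 with YKL-06-102. The YKL-06-102 libraries stood alone at the top, and those of palbociclib and BSJ-03-123 lay between them and DMSO and overlapped each other. Against DMSO it rose 2.03-fold with YKL-06-102 (log2 1.02, SE 0.0471, adjusted p = 2.01e-16), 1.24-fold with palbociclib (adjusted p = 1.3e-05) and 1.31-fold with BSJ-03-123 (adjusted p = 4.31e-07). YKL-06-102 exceeded palbociclib 1.63-fold (log2 0.71, SE 0.0447, adjusted p = 5.76e-13), and BSJ-03-123 lay below YKL-06-102 by a log2 of -0.63 (adjusted p = 1.42e-11). Only 0.425% of its words are shared with other genes, it overlaps no tested gene, and all of these calls stood without any single library. The RefSeq start region shown above, at 11597383 to 11597512, lies inside the gene range given here and not at its beginning.

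ZNF114 (48270102 to 48287608, plus strand; 3 fingers) moved in opposite directions. It had 6.86, 6.37 and 6.57 CPM in DMSO, 4.55, 4.51 and 4.72 with palbociclib, 5.82, 5.93 and 6.98 with BSJ-03-123 and 10.3, 11.7 and 11.5 with YKL-06-102. Palbociclib lay below and YKL-06-102 above every DMSO library, while BSJ-03-123 overlapped DMSO. The log2 change was -0.52 with palbociclib (SE 0.109, adjusted p = 0.000406), 0.76 with YKL-06-102 (SE 0.0924, adjusted p = 9.57e-08) and -0.07 with BSJ-03-123 (95% interval -0.29 to 0.14). The difference between YKL-06-102 and palbociclib was 1.28 (SE 0.0993, adjusted p = 2.29e-11).

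ZNF792, a KRAB gene with 12 fingers and no shared words (34956354 to 34964049, minus strand), fell with YKL-06-102. It had 3.93, 4.60 and 4.67 CPM in DMSO, 5.28, 4.64 and 4.82 with palbociclib, 4.31, 4.35 and 4.81 with BSJ-03-123 and 1.80, 1.88 and 1.81 with YKL-06-102. The last 3 lay below all other libraries, which overlapped among themselves. The log2 change from DMSO was -1.27 (SE 0.146, adjusted p = 2.93e-08), a 2.41-fold lower level, against 0.16 with palbociclib (95% interval -0.08 to 0.40) and 0.03 with BSJ-03-123 (95% interval -0.22 to 0.28). YKL-06-102 lay 2.69-fold below palbociclib (adjusted p = 3e-09) and BSJ-03-123 2.45-fold above YKL-06-102 (adjusted p = 5.73e-08).

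ZNF823, a KRAB gene with 15 fingers, had 5.13, 3.91 and 5.10 CPM in DMSO, 3.17, 3.14 and 3.52 with palbociclib, 2.96, 3.06 and 2.59 with BSJ-03-123 and 5.36, 5.76 and 5.15 with YKL-06-102. Palbociclib and BSJ-03-123 lay below DMSO and YKL-06-102 above it. The log2 change was -0.51 (adjusted p = 0.00388) and -0.70 (adjusted p = 0.000338) with the first pair and 0.22 (adjusted p = 0.163) with YKL-06-102, which exceeded palbociclib by 0.73 (SE 0.129, adjusted p = 5.88e-05). ZNF541, known from male germ cells and with no KRAB match, was near the lower limit of the rule: 1.20, 0.726 and 1.41 CPM in DMSO, 0.812, 0.972 and 0.964 with palbociclib, 0.903, 1.20 and 0.991 with BSJ-03-123 and 2.17, 1.96 and 1.89 with YKL-06-102. The YKL-06-102 libraries lay above all others. It rose by 0.89 from DMSO (SE 0.223, adjusted p = 0.00154) and exceeded palbociclib by 1.13 (SE 0.228, adjusted p = 0.000228). The calls of ZNF627, ZNF114, ZNF823 and ZNF541 between YKL-06-102 and palbociclib were the 4 higher calls that stood without any single library.

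**Figure D4:**
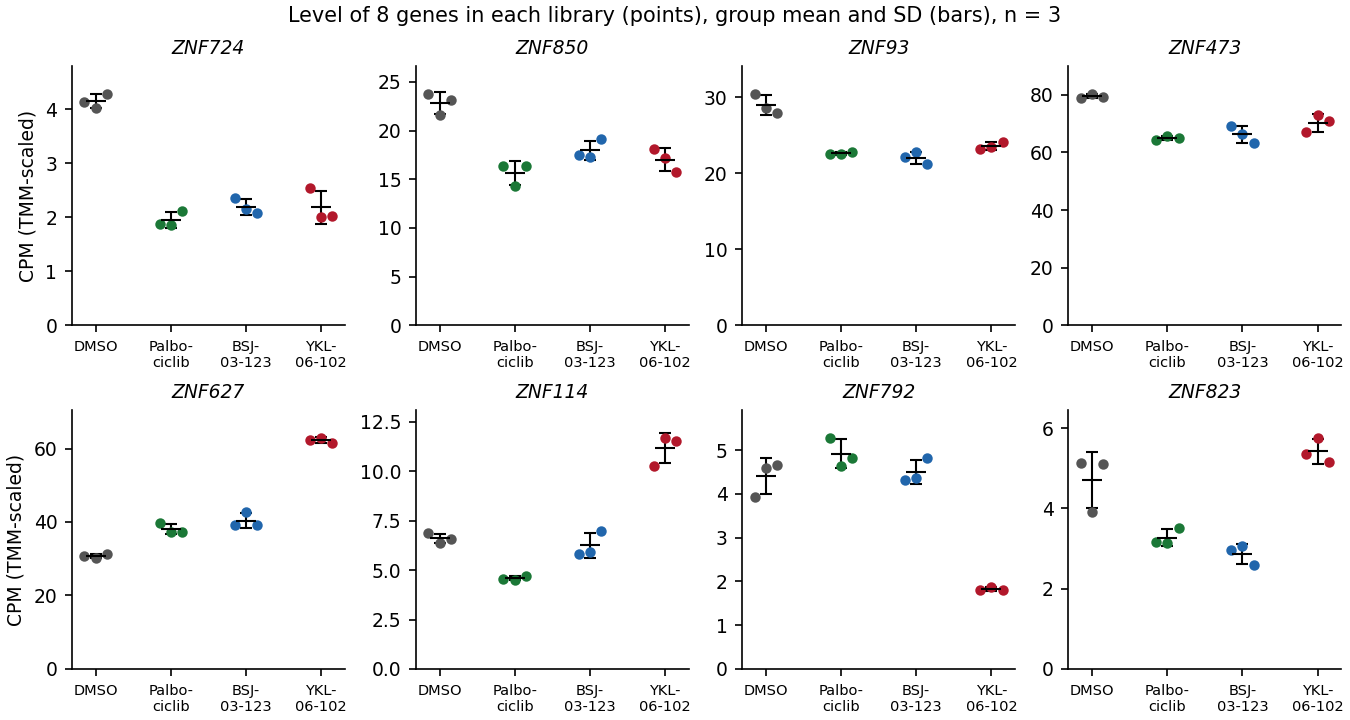
CPM, scaled by TMM factors, of 8 members in each of the 12 libraries (points), with group mean and SD (bars, n = 3). ZNF724, ZNF850, ZNF93 and ZNF473 (top) are lower with every compound than with DMSO, and ZNF627, ZNF114, ZNF792 and ZNF823 (bottom) separate YKL-06-102 from palbociclib.

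The lower members were smaller in effect. ZNF329, without a KRAB match, had 3.40, 3.23 and 3.42 CPM in DMSO, 4.22, 3.98 and 4.96 with palbociclib and 3.28, 3.24 and 3.13 with YKL-06-102. Its difference between YKL-06-102 and palbociclib was -0.44 (adjusted p = 0.00989), lost without palbociclib replicate 3 (adjusted p = 0.0727), and its palbociclib rise of 0.39 was lost without that library (adjusted p = 0.12) or DMSO replicate 2 (adjusted p = 0.075). ZNF285 had 10.6, 10.6 and 10.0 CPM with palbociclib against 6.84, 8.45 and 8.57 with YKL-06-102 and 7.96, 8.80 and 8.25 with DMSO, a difference of -0.39 (SE 0.0908, adjusted p = 0.00168). ZNF808, with 23 fingers, had 8.57, 9.01 and 9.35 CPM against 7.66, 6.70 and 6.59, a difference of -0.36 (SE 0.093, adjusted p = 0.00439). In both the palbociclib libraries lay above those of YKL-06-102 without overlap, although ZNF808 overlaps ZNF701 and shares 22.6% of its words with other genes.

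ZNF264 had 24.3, 22.5 and 23.9 CPM in DMSO, 28.6, 27.0 and 27.4 with palbociclib, 28.1, 29.8 and 27.2 with BSJ-03-123 and 23.2, 24.1 and 23.0 with YKL-06-102. Palbociclib and BSJ-03-123 stood above both other groups, and YKL-06-102 overlapped DMSO. It rose by 0.24 and 0.27 with the first pair (adjusted p = 0.00134 and 0.000436), changed by -0.00 with YKL-06-102 (95% interval -0.12 to 0.11), and was lower with YKL-06-102 than with palbociclib by a log2 of -0.24 (adjusted p = 0.0012). ZNF146, at 263, 279 and 266 CPM with YKL-06-102, lay below palbociclib by -0.15 (SE 0.0338, adjusted p = 0.00141), a call that stood without any library. ZNF350, the BRCA1-binding repressor also called ZBRK1, rose by 0.32 with palbociclib (adjusted p = 6.47e-05), changed by 0.06 with YKL-06-102 (adjusted p = 0.488), and differed between YKL-06-102 and palbociclib by -0.26 (adjusted p = 0.000642). The other lower calls that stood without any single library were ZNF566, ZNF700, ZNF468 and ZNF761, with differences of -0.30, -0.27, -0.25 and -0.21.

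**Figure D5:**
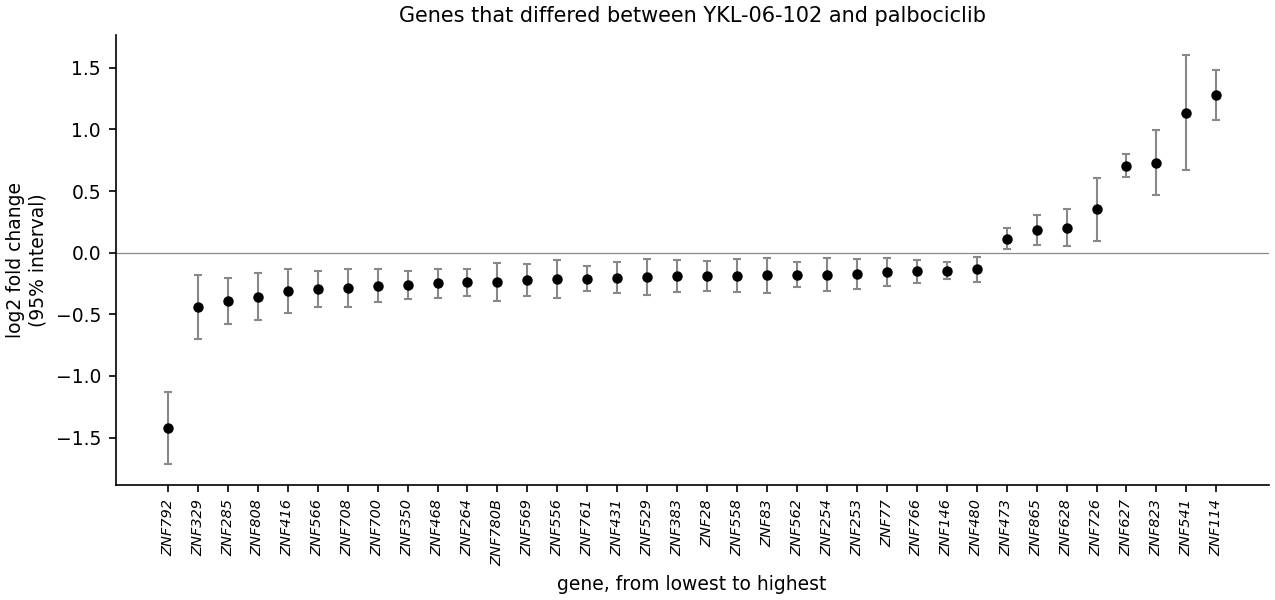
Log2 fold change of YKL-06-102 against palbociclib with its 95% interval for the 36 members called in that comparison, ordered by value. ZNF792 lies lowest at -1.43, most of the 28 lower members lie between -0.44 and -0.13, and ZNF114 lies highest at 1.28.

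BSJ-03-123 and palbociclib gave no member called different in edgeR's test, where 0.155% of all tested genes were higher and 0 lower with BSJ-03-123. At an unadjusted p under 0.05, 4 members were higher and 5 lower, and DESeq2 and limma-voom also called 0. ZNF114 had a difference of 0.45 (95% interval 0.22 to 0.67, adjusted p = 0.11), and it was called without DMSO replicate 2 (adjusted p = 0.0396). The 95% interval of the difference was -0.02 to 0.18 for ZNF627, -0.28 to 0.16 for ZNF461 and -0.17 to 0.52 for ZNF724.

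Between the conjugates, 15 members were higher and 7 lower with BSJ-03-123 than with YKL-06-102, 7.69% and 3.59%, against 9.74% and 10.4% of all tested genes. ZNF792 and ZNF264 were among the higher, the latter by 0.28 (adjusted p = 0.000402), and ZNF541, ZNF823, ZNF114 and ZNF627 among the lower, by -0.96, -0.92, -0.84 and -0.63. ZNF649, which overlaps ZNF577, was higher by 0.36 (adjusted p = 0.00557) and lost the call without BSJ-03-123 replicate 1 (adjusted p = 0.0579). The higher count fell to 6 without YKL-06-102 replicate 2 or 3, and to 7 without YKL-06-102 replicate 1 or palbociclib replicate 1. It was 6 with DESeq2, and 6 against 8 lower after GC correction. Of the calls, 4 higher and 4 lower stood without any single library.

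The members fell into 15 position clusters, separated where neighbouring genes lay over 1 Mb apart. The cluster at 19.7 to 24.1 Mb, the pericentromeric group of ZNF91 relatives, held 23 members, of which 6 were higher and 6 lower with palbociclib, 1 and 5 with BSJ-03-123, and 0 and 5 with YKL-06-102. Of all tested genes 15.6%, 12.4% and 15.6% were higher and 17.6%, 15.7% and 21.3% lower in the same order. The cluster's lower share with YKL-06-102 is near that of all genes. Leaving out DMSO replicate 2 gave 1 and 6, 0 and 7, and 0 and 6. ZNF724, ZNF726, ZNF93, ZNF714 and ZNF85 made up the 5 lower members with each conjugate. The calls of ZNF85 were lost without DMSO replicate 1 with palbociclib, BSJ-03-123 and YKL-06-102 alike (adjusted p = 0.131, 0.0707 and 0.133), and those of ZNF714 stood without any single library. ZNF91, which is known to repress SVA elements, rose by 0.31 with palbociclib (adjusted p = 0.0033) and 0.24 with BSJ-03-123 (adjusted p = 0.0263, and 0.124, 0.0683 and 0.129 without DMSO replicate 1, DMSO replicate 2 and BSJ-03-123 replicate 1), and changed by 0.14 with YKL-06-102 (adjusted p = 0.199). Thus the large relatives ZNF91 and ZNF93 moved in opposite directions with palbociclib. The cluster's median was 0.07, -0.04 and -0.10 with the compounds in the order above.

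In the cluster at 36.2 to 37.8 Mb, which holds ZNF461, ZNF585A, ZNF585B and ZNF850, 10 of 23 members were higher and 1 lower with palbociclib, with a median of 0.19, where 15.6% of all tested genes were higher and 17.6% lower. In the same cluster 4 were higher and 1 lower with BSJ-03-123, against 12.4% and 15.7% of all genes, and 3 and 3 with YKL-06-102, against 15.6% and 21.3%. When DMSO replicate 2 was left out, the cluster had 4 and 2, 1 and 2, and 2 and 4, so that the excess of higher members with palbociclib depended on that library. At 51.6 to 53.6 Mb, 11 of 33 members were higher and 1 lower with palbociclib (8 and 2 without DMSO replicate 2). In that cluster 8 were lower and 0 higher with YKL-06-102 than with palbociclib, where 11.9% of all tested genes were lower and 12.7% higher. The lower count over all members in that comparison rested on single libraries, as given above. At 7.1 to 9.8 Mb, where ZNF317, ZNF358 and ZNF561 lie, 6 of 13 members were higher with palbociclib, 5 with BSJ-03-123 and 3 with YKL-06-102, while 0 were lower; without DMSO replicate 2 each compound had 3 higher, and 0, 1 and 1 lower. At the end of the long arm, 55.5 to 58.5 Mb, 14 of 53 members were higher and 4 lower with palbociclib and 11 and 1 with YKL-06-102, and without DMSO replicate 2 10 and 3, and 12 and 2. ZNF541 and ZNF114, the members at 47.5 to 48.3 Mb, were both higher with YKL-06-102. No difference between clusters was tested.

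Members with a KRAB match counted 55 higher and 13 lower of 164 with palbociclib, with a median of 0.15, and those without it 6 and 5 of 31, with a median of 0.03. The counts were 30 and 8 against 3 and 4 with BSJ-03-123. They were 25 and 11 against 6 and 3 with YKL-06-102. Of all tested genes 15.6%, 12.4% and 15.6% were higher and 17.6%, 15.7% and 21.3% lower. Among ZNF genes elsewhere with palbociclib, 18 were higher and 8 lower of 91 with a KRAB match, with a median of 0.09. Those without it counted 22 and 12 of 119, with a median of 0.06. Without DMSO replicate 2, the members with a KRAB match counted 31 and 15, 16 and 15, and 19 and 20. Those without a match counted 4 and 3, 4 and 3, and 10 and 3. In that setting 14.7% and 17.3%, 12.3% and 16.1%, and 19.2% and 19.7% of all genes were higher and lower. ZNF genes elsewhere with a KRAB match then counted 9 and 8 with palbociclib. Members whose promoter held CCGGAAGT counted 16 higher and 3 lower of 43 with palbociclib, with a median of 0.20, and those without it 40 and 12 of 133, with a median of 0.11. They were 11 and 3, and 21 and 12, without DMSO replicate 2. Other letters also split the members: 26 were higher and 6 lower of 57 without GGGCGG, against 30 and 9 of 119 with it, and 30 and 3 of 84 without CCAAT, against 26 and 12 of 92 with it. The GGGCGG counts were 14 and 7, and 18 and 8, without DMSO replicate 2, and the CCAAT counts 18 and 3, and 14 and 12. These classes overlap and are described, not tested.

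Several genes on a list of co-repressor and heterochromatin genes fell with every compound. The list reaches beyond TRIM28, SETDB1 and the HP1 genes, named above as the partners of KRAB factors. Of 31 co-repressor and heterochromatin genes, all tested, 2 were higher and 12 lower with palbociclib, 3 and 11 with BSJ-03-123 and 2 and 18 with YKL-06-102, with medians of -0.07, -0.03 and -0.13. Of all tested genes 17.6%, 15.7% and 21.3% were lower. Leaving out DMSO replicate 2 gave 3 and 13, 1 and 13, and 2 and 20. TRIM28, the co-repressor itself, lies beyond the last member at 58544091 to 58550722 and stood at 1162 ± 52.3 CPM in DMSO. It had 966 ± 10.1 CPM with palbociclib, 995 ± 8.34 with BSJ-03-123 and 1065 ± 3.02 with YKL-06-102, log2 changes of -0.27, -0.22 and -0.13 (adjusted p = 9.85e-08, 2.27e-06 and 0.00191). UHRF1, which brings DNMT1 to newly copied DNA, fell by 1.53, 1.45 and 1.02, and DNMT1 by 0.85, 0.79 and 0.64. The H3K9 methyltransferases SUV39H1 and SUV39H2 fell by 0.68 and 0.73 with palbociclib, and the HP1 genes CBX1, CBX3 and CBX5 by 0.27, 0.32 and 0.38. SETDB2, of the same list, rose by 0.21 with palbociclib and 0.15 with BSJ-03-123 (adjusted p = 0.000629 and 0.016). EHMT1 and EHMT2 were not called with either. SETDB1 rose by 0.14 with palbociclib (adjusted p = 0.00199), from 109 ± 1.37 to 120 ± 2.63 CPM. Its change of 0.09 with BSJ-03-123 had an adjusted p of 0.0494, and of 0.187 without BSJ-03-123 replicate 3. That call was lost in 17 other settings, among them every omission of a single library, DESeq2 and limma-voom. With YKL-06-102 SETDB1 rose by 0.10 (adjusted p = 0.0216).

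Phthalimide compounds such as thalidomide bind the ubiquitin ligase adaptor cereblon, and ZNF653 and ZNF787 are the members among 14 zinc-finger proteins reported as cereblon substrates. Of the 14 genes 12 were tested, of which 2 were higher and 2 lower with palbociclib, 3 and 1 with BSJ-03-123 and 4 and 2 with YKL-06-102. Of all tested genes 33.3%, 28.1% and 36.9% were called in either direction. The share of the 12 was above that of all genes with both BSJ-03-123 and YKL-06-102, by few genes, and near it with palbociclib. No difference was tested. Without DMSO replicate 2 the counts were 2 and 3, 3 and 2, and 5 and 3. These were 16.7% and 25%, 25% and 16.7%, and 41.7% and 25% of the 12. Of all genes 14.7% and 17.3%, 12.3% and 16.1%, and 19.2% and 19.7% were called in that setting. Neither member was called at the RNA level in any comparison with all libraries. ZNF653 had 5.07 ± 0.57 CPM in DMSO and 4.77 ± 0.596 and 4.76 ± 0.647 with BSJ-03-123 and YKL-06-102, and ZNF787 74.9 ± 8.83, 70.5 ± 2.74 and 74.3 ± 3.8. ZNF787 was highest in DMSO replicate 2, at 85.1 CPM against 70.1 and 69.5. Without that library YKL-06-102 exceeded palbociclib by 0.13 (adjusted p = 0.00917). Without DMSO replicate 1 or 3, its change with palbociclib was called lower at -0.18 and -0.19 (adjusted p = 0.028 and 0.0133), and without DMSO replicate 3 its change of -0.15 with BSJ-03-123 was also called (adjusted p = 0.0498). ZNF692 of chromosome 1, on the same list, stood at 89.5, 82.5 and 88.7 CPM in DMSO, 89.0, 88.5 and 84.4 with palbociclib, 130, 117 and 127 with BSJ-03-123 and 181, 192 and 202 with YKL-06-102. Both conjugates thus lay above DMSO and palbociclib, and no member showed that order with calls for both conjugates against palbociclib, since none was called for BSJ-03-123.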

How the data were processed

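The deposited counts are whole reads per Ensembl gene in 12 libraries. The tools were Trimmomatic 0.36, STAR 2.5.2b with the hg38 build and HTSeq, per the submitters' processing notes. HTSeq's version and strand setting and the annotation release: not given in the sources used here. Libraries came from a stranded TruSeq kit, per the labels' protocols.

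A single fit of the 12 libraries used edgeR 4.0.16 (R 4.3.3; filterByExpr, minimum count 10 and minimum total count 15, TMM factors, quasi-likelihood test, 2-sided, 8 residual degrees of freedom). Adjusted p-values are Benjamini-Hochberg over the 14214 tested genes of each of 6 contrasts. SE and 95% intervals are Wald values of that fit. DESeq2 1.42.0 and limma 3.58.1 (voom) were alternatives. The test was checked on simulated data.

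Positions and coding sequences came from GENCODE 29 (GRCh38), fingers from the pattern C, 2 to 4 residues, C, 12 residues, H, 3 to 5 residues, H, and the KRAB match from a pattern of its A box. These were read from translated GENCODE sequences in place of the RefSeq proteins first planned. Words of 50 bases were compared between transcripts. Promoters were from RefSeq (GRCh38.p14).

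Members, lists and naming rule were chosen with earlier results of these data known. Named were the 5 highest and 5 lowest called members without overlap in each contrast with DMSO (4 and 4 between compounds), the 5 with the highest mean CPM, those nearest the CPM limit, the called member with the smallest p of each cluster those on the cereblon list, and TRIM28, SETDB1, UHRF1, DNMT1 and ZNF692. SUV39H1, SUV39H2, SETDB2, EHMT1, EHMT2, CBX1, CBX3, CBX5, ZNF91, ZNF85, ZNF714, ZNF350, ZNF566, ZNF700, ZNF468, ZNF761, ZNF428 and ZNF738 were named after their values were seen.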

Additional observations from a re-analysis of the deposited data

How the results depend on the processing

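The counts of called members depend on DMSO replicate 2. Members near the lower limit of 1 CPM rest on the fewest counts. Of single named genes under all settings, 4968 values kept their side of the threshold, 150 lost it, 35 gained it and 0 reversed; the cause was not tested. Same-numbered libraries did not deviate together (correlations -0.16 to 0.23, against -0.21 to 0.18 for other pairs). With 3 libraries per group, this cannot tell whether same-numbered libraries were handled together. With the replicate block the counts higher and lower were 59 and 17 with palbociclib, then 32 and 13 with BSJ-03-123, then 30 and 16 with YKL-06-102, 7 and 29 for YKL-06-102 against palbociclib, 16 and 7 for BSJ-03-123 against YKL-06-102 and 0 for BSJ-03-123 against palbociclib.

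Leaving out each library in turn gave 35 to 67 members higher, 13 to 19 lower and a median of 0.08 to 0.15 with palbociclib. With BSJ-03-123 it gave 20 to 48, 10 to 18 and 0.045 to 0.13, and with YKL-06-102 26 to 34, 10 to 23 and -0.01 to 0.04. BSJ-03-123 against palbociclib gave 0 to 1 higher, 0 lower and -0.04 to -0.02. YKL-06-102 against palbociclib gave 4 to 13, 13 to 31 and -0.09 to -0.05, and BSJ-03-123 against YKL-06-102 6 to 17, 5 to 12 and 0.02 to 0.06.

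Scaling by library totals gave 11 lower and a median of 0.17 with palbociclib, and 60 higher and a median of 0.14 with BSJ-03-123. The medians of all tested genes in that setting were 0.06 and 0.05. With no filter on low counts, 8 were higher with BSJ-03-123 than with YKL-06-102. GC correction, and the replicate block with GC correction, gave a YKL-06-102 median of 0.061 and 0.060, 15 and 15 lower with YKL-06-102 than with palbociclib, and 6 and 7 higher with BSJ-03-123 than with YKL-06-102. DESeq2 gave 14 and 6 for those counts. Among the 117 members that overlap no tested gene, 39 were higher and 11 lower with palbociclib, 6 lower with BSJ-03-123, 18 higher and 7 lower with YKL-06-102, 14 lower with YKL-06-102 than with palbociclib and 7 higher with BSJ-03-123 than with YKL-06-102. The shares of all tested genes for these counts were 15.6% and 17.6%, 15.7%, 15.6% and 21.3%, 11.9% and 9.74% in the same order. At an adjusted p under 0.01, 35 were higher and 10 lower with palbociclib, 17 higher with BSJ-03-123, 17 higher with YKL-06-102, 4 higher and 14 lower with YKL-06-102 than with palbociclib, and 5 higher and 4 lower with BSJ-03-123 than with YKL-06-102. The share of all tested genes at that threshold is not given here, so these counts cannot be set against it. An adjusted p under 0.05 with a change of at least 0.32 on the log2 scale gave 18 and 9 with palbociclib, 14 and 6 with BSJ-03-123, then 11 and 6 with YKL-06-102, 5 and 4 for YKL-06-102 against palbociclib, and 2 and 4 for BSJ-03-123 against YKL-06-102.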
